A study of Mus musculus with 6 samples.

Results

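The miR-15, miR-16, miR-195 and miR-497 family is a set of mouse miRNAs whose 5p arms share 1 seed, the stretch of bases 2 to 8 that pairs with target mRNAs. Its members were taken as every row of the deposited miRNA table named miR-15a, miR-15b, miR-16, miR-195a or miR-497a, on either arm. This gave 10 of 1300 rows, 5 of them 5p arms and 5 of them 3p arms. The values came from small RNA sequencing of whole ovary, with 3 libraries per group. The hypobaric hypoxia group was female C57BL/6J mice, aged 8 weeks per the design text, held in a decompression chamber at 43.12 kPa to simulate 6500 m (5000 m in the library descriptions). The normal pressure group was the same strain, sex and age, held in Lanzhou at 83.56 kPa and 1588 m (1500 m in the titles). Oxygen pressure was 8.1 kPa for the hypobaric hypoxia group and 17.8 kPa for the normal pressure group. Mice of both groups were first synchronized with oral levonorgestrel and ethinylestradiol; the doses, 0.1 and 0.02 mg/kg, are given for the hypobaric group alone. Exposure lasted 15 days per the design text, and 15, 16 and 17 days by library number in the descriptions. Each group had 15 mice, and the labels do not tell single-mouse from pooled libraries. The p-values therefore rest on the spread among the 3 libraries of a group, part of which may be technical.

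The family is known as a brake on the cell cycle. Its members lower the mRNAs of D- and E-type cyclins, of the kinases Cdk6 and Wee1 and of the survival factor Bcl2, and in human carcinoma cells miR-15b and miR-16 also lower VEGFA, the hypoxia-induced angiogenic factor. The ovary depends on cycles of granulosa cell division and of vessel growth in follicles and corpora lutea, which makes such regulators of interest there. miR-16 is also abundant in red blood cells.

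The mature 5p sequences, from RefSeq on GRCm38.p6, are shown because the seed is what makes these miRNAs a family and the remaining bases are what tells their reads apart. They are written 5′ to 3′ with the seed in capitals.
mmu-miR-16-5p: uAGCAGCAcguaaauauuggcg
mmu-miR-195a-5p: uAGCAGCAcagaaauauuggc
mmu-miR-15a-5p: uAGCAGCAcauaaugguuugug
mmu-miR-15b-5p: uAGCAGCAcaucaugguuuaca
mmu-miR-497a-5p: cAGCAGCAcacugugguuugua
mmu-miR-322-5p: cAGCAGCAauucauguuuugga
Of the 867 annotated rows with a RefSeq sequence, out of 1025, 6 had this seed: the 5 members and miR-322-5p, the rodent counterpart of human miR-424. The complementary stretch in a target reads UGCUGCU. After the seed the members diverge. Position by position, miR-16-5p and miR-195a-5p are identical at 19 of 21 bases, miR-15a-5p and miR-15b-5p at 18 of 22, and miR-16-5p and miR-497a-5p at 11 of 22. The sources used here do not say how reads that fit several of these sequences were assigned, so the split between miR-16-5p and miR-195a-5p is uncertain.

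The members lie in 3 clusters of 2 hairpins each. On chromosome 3, plus strand, Mir15b (chr3:69009772-69009835) and Mir16-2 (chr3:69009902-69009996) stand 66 bases apart in an intron of Smc4, which encodes a core subunit of condensin. On chromosome 14, minus strand, Mir16-1 (chr14:61631880-61631972) overlaps an annotated exon of the noncoding gene Dleu2 and Mir15a (chr14:61632027-61632110) lies in its intron, 54 bases away. On chromosome 11, plus strand, Mir497 (chr11:70234717-70234800) and Mir195a (chr11:70235042-70235135) lie 241 bases apart, outside any other annotated gene except the antisense Mir497b. The 2 miR-16 hairpins are shown with the mature 5p arm in capitals.
Mir16-1: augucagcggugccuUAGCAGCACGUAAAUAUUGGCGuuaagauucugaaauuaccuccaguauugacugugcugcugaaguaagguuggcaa
Mir16-2: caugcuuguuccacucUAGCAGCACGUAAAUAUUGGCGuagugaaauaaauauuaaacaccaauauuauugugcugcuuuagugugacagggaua
Both release the same 22 bases, so reads of miR-16-5p cannot be assigned to chromosome 14 or chromosome 3. The rest of the hairpins differs, and only the 3p arms could tell the loci apart. No row of the deposited values was named miR-16-1-3p or miR-195b, so neither could be examined.

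The libraries were close in depth, at 20800777 to 22559146 reads in all, and 6852198 to 8701696 of them per library fell on miRNAs. The miRNA share was 41.1%, 38.0% and 38.1% of reads in hypobaric libraries 1, 2 and 3. In normal-pressure libraries 1, 2 and 3 it was 36.3%, 30.4% and 35.0%, so the groups did not overlap. Values are reads per 1000000 reads (RPM), and 3 reads correspond to 0.133 to 0.144 RPM. The members with reads in all libraries are 21 or 22 bases long, so levels were compared without a length correction. A pair of libraries, hypobaric library 3 and normal-pressure library 2, stood apart from the other 4 on the second principal component, which held 28.1% of the variance. The gonad-enriched miR-202-5p, which marks the tissue, was present in every library at 933 to 2955 RPM. Under hypobaric hypoxia 15 of 475 tested miRNAs were higher and 8 were lower in limma (adjusted p below 0.05). Scaling to the median of ratios instead gave 12 higher and 14 lower. The 15 higher in limma include miR-199a-3p, at 2632 RPM under hypobaric hypoxia and 31.0 RPM at normal pressure. The 8 lower include miR-199b-3p, at 21.6 RPM under hypobaric hypoxia and 2006 RPM at normal pressure. How reads were assigned between these names was not tested.

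Under hypobaric hypoxia miR-16-5p and miR-15b-5p rose, by about 2.17-fold and 1.82-fold, and none of the tested members fell. These folds are per all reads. Scaled to miRNA reads instead, the log2 changes of the 2 were 0.91 and 0.66, against 1.12 and 0.87 (limma adjusted p = 0.0164 and 0.0201 when so scaled). The other 3 members with the seed, miR-15a-5p, miR-195a-5p and miR-497a-5p, had positive log2 changes that did not pass the test, and so had both tested 3p arms. Of the 10 members, 7 had a mean of at least 1 RPM and entered the test. Of these, 2 were called higher, against 3.16% of all tested miRNAs, and 0 lower, against 1.68%. The median log2 change of the 7 was 0.75, against 0.15 over all 475 tested. The log2 change was positive in 7 of 7, against 65.7% of all tested miRNAs. These 7 are not independent, since miR-15b and miR-195a are counted on both arms and the hairpins lie in shared clusters. Scaled to miRNA reads, the log2 change was 0.17 for miR-497a-5p and 0.04 for miR-195a-3p. Leaving the 10 most abundant miRNAs out of that scaling gave -0.0036 for miR-195a-3p. The 3 members that were not tested are 3p arms averaging under 1 RPM. In whole ovary, more cells of a type and more miRNA per cell cannot be told apart.

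**Figure D1:**
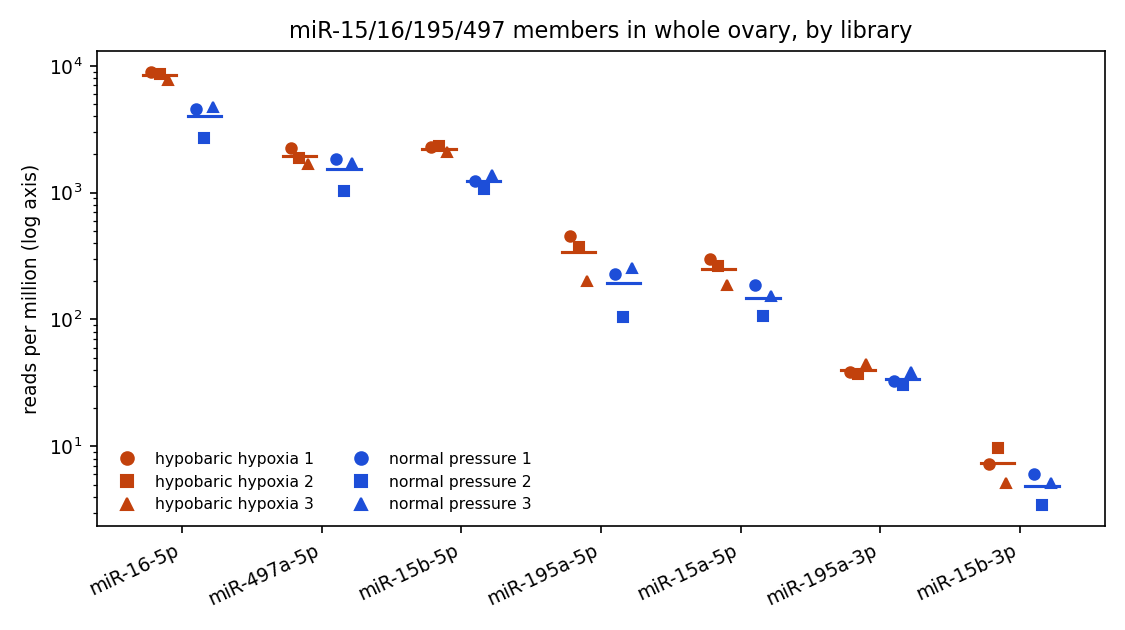
Level of the 7 tested members in each library, in RPM on a log axis; orange is hypobaric hypoxia, blue is normal pressure, symbols give the library number and bars the group mean (n = 3). The groups are apart for miR-16-5p and miR-15b-5p, nearly touch for miR-15a-5p and overlap for the other 4.

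mmu-miR-16-5p was the most abundant of the 10 members and ranked 19th by mean level among the 475 tested miRNAs. It stood at 8873, 8668 and 7768 RPM in hypobaric libraries 1, 2 and 3, against 4598, 2710 and 4692 RPM in normal-pressure libraries 1, 2 and 3. All 3 hypobaric libraries lay above all 3 normal-pressure ones, and normal-pressure library 2 was the low one of its group. These levels rest on 165026 to 188045 reads per hypobaric library and 61138 to 97589 reads per normal-pressure library. Means were 8437 ± 588 RPM under hypobaric hypoxia and 4000 ± 1118 RPM at normal pressure (SD, n = 3 each). The log2 change was 1.12 ± 0.21 (SE), with limma adjusted p = 0.0161. Relative to the median of all tested miRNAs it was 0.97. The call was lost without hypobaric library 1 (limma adjusted p = 0.0801) or hypobaric library 2 (0.0685). Without both libraries that stood apart, the log2 change was 0.92 with limma adjusted p = 0.0035.

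mmu-miR-15b-5p, encoded beside miR-16-2 in Smc4, stood at 2282, 2314 and 2078 RPM in the 3 hypobaric libraries, against 1236, 1061 and 1376 RPM in the 3 normal-pressure libraries. The groups did not overlap, and the spread within each was narrow. Means were 2225 ± 128 RPM under hypobaric hypoxia and 1225 ± 158 RPM at normal pressure (SD, n = 3 each). On the log2 scale the change was 0.87 ± 0.16 (SE; limma adjusted p = 0.0148), or 0.71 relative to the median of all tested miRNAs. This call too was lost without hypobaric library 1 (limma adjusted p = 0.0784) or hypobaric library 2 (0.0702). Without the pair that stood apart the log2 change was 0.82, with limma adjusted p = 0.0126. The count tests called the same 2 members: edgeR gave adjusted p = 0.0213 for miR-16-5p and 0.0122 for miR-15b-5p, and DESeq2 gave 0.000292 and 5.0e-05. edgeR called 2.32% of the 475 tested miRNAs higher, and DESeq2 6.5% of the 446 to which it gave an adjusted p.

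mmu-miR-15a-5p, from the chromosome 14 cluster, was at 301, 264 and 187 RPM in the hypobaric libraries, against 186, 107 and 154 RPM in the normal-pressure libraries. The groups did not overlap, but hypobaric library 3 at 186.9 RPM lay just above normal-pressure library 1 at 185.5 RPM. Its log2 change of 0.75 ± 0.27 (SE) had limma adjusted p = 0.149 and did not pass. All hypobaric libraries lay above all normal-pressure ones for 3 of the 7 tested members, against 19.2% of all tested miRNAs.

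The chromosome 11 pair, miR-195a and miR-497a, overlapped between groups. mmu-miR-195a-5p was at 452, 371 and 200 RPM in the hypobaric libraries, against 226, 105 and 254 RPM in the normal-pressure libraries. Its lowest value in each group was in hypobaric library 3 and normal-pressure library 2. Its log2 change of 0.82 ± 0.39 (SE) had limma adjusted p = 0.280. Without those libraries it was 0.77 with limma adjusted p = 0.0412, a call made on 2 libraries against 2, in a fit that called 7.16% of the tested miRNAs higher. Leaving out 1 of them at a time moved the value further: it was 0.43 without normal-pressure library 2 (limma adjusted p = 0.586) and 1.16 without hypobaric library 3 (0.132). miR-497a-5p was at 2258, 1873 and 1691 RPM in the hypobaric libraries, against 1832, 1027 and 1724 RPM in the normal-pressure libraries. Here hypobaric library 3 lay below normal-pressure libraries 1 and 3. The log2 change was 0.38 ± 0.24 (SE), with limma adjusted p = 0.377 and a 95% interval from -0.16 to 0.92, which holds both 0 and the 0.87 of miR-15b-5p. Without normal-pressure library 2 the value was 0.12, and with quantile scaling 0.11.

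**Figure D2:**
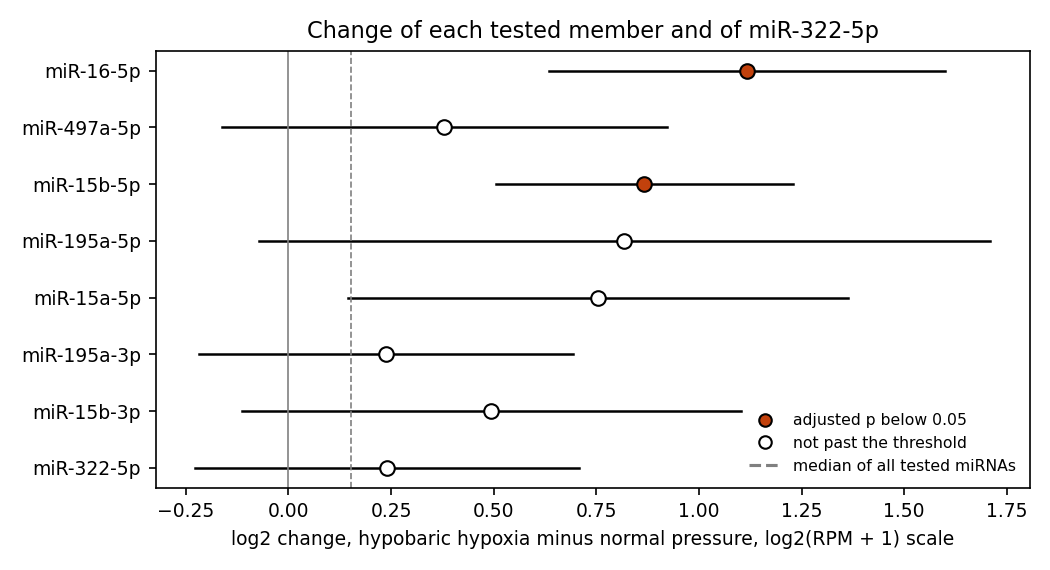
Log2 change of each tested member and of miR-322-5p, hypobaric hypoxia minus normal pressure, on the log2(RPM + 1) scale, with the 95% interval from limma. Filled points passed an adjusted p of 0.05; the dashed line is the median of all tested miRNAs, 0.15. miR-16-5p (1.12) and miR-15b-5p (0.87) are filled; of the 6 open points, the interval of miR-15a-5p stays above 0 and the other 5 reach below it.

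Order by mean level over the 6 libraries was miR-16-5p, miR-497a-5p, miR-15b-5p, miR-195a-5p, miR-15a-5p, miR-195a-3p and miR-15b-3p. miR-497a-5p and miR-15b-5p were close, at 1734 and 1725 RPM over all libraries, and their order was not tested. Nor was the order of miR-195a-5p and miR-15a-5p tested, at 268 and 199.8 RPM. Under hypobaric hypoxia miR-15b-5p averaged 2225 RPM and miR-497a-5p 1940 RPM, while at normal pressure miR-15b-5p averaged 1225 RPM and miR-497a-5p 1528 RPM.

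Whether miR-16-5p moved apart from the other members was examined as a ratio within each library. The ratio of miR-16-5p to miR-497a-5p was 3.93, 4.63 and 4.59 in the hypobaric libraries, against 2.51, 2.64 and 2.72 in the normal-pressure libraries. All 3 hypobaric ratios lay above all 3 normal-pressure ones, a mean difference of 0.74 on the log2 scale. An exact two-sided permutation test gave p = 0.1, which 3 against 3 libraries cannot go below, and 0.2 adjusted over the 4 ratios computed. The ratio to miR-15b-5p was 3.89, 3.75 and 3.74 in the hypobaric libraries, against 3.72, 2.55 and 3.41 in the normal-pressure libraries. The groups did not overlap, though hypobaric library 3 lay barely above normal-pressure library 1 (exact permutation p = 0.1, adjusted 0.2). Without normal-pressure library 2 the mean log2 difference fell to 0.09, against 0.25 with it. The ratios to miR-15a-5p and miR-195a-5p overlapped between groups, with exact permutation p = 0.2 and 0.6 (adjusted 0.267 and 0.6).

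**Figure D3:**
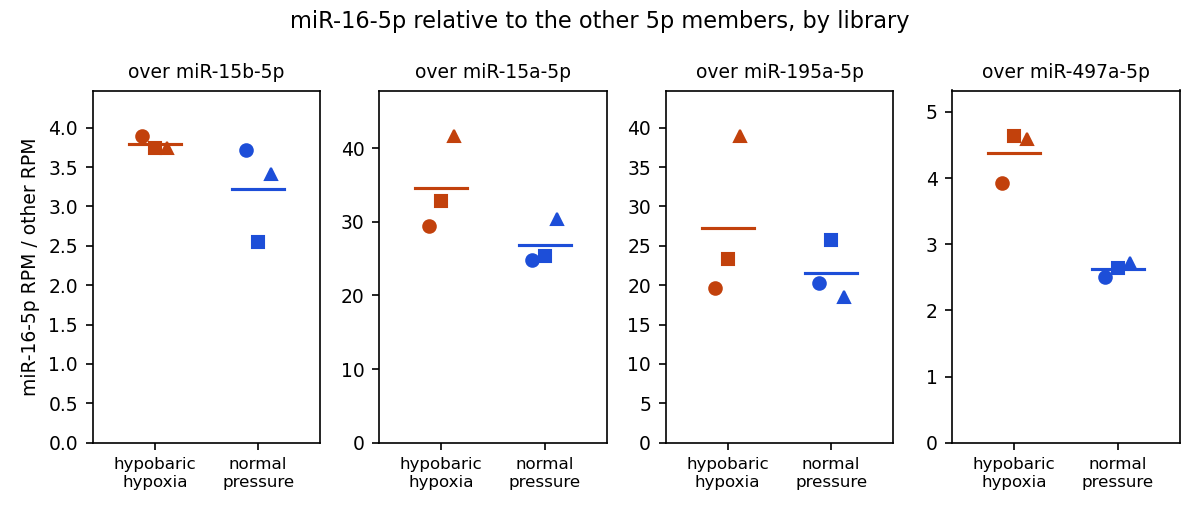
Ratio of miR-16-5p to each of the other 4 members with the seed, by library, on linear axes from 0; circles, squares and triangles are libraries 1, 2 and 3, and bars are group means (n = 3). The ratio to miR-497a-5p averages 4.38 under hypobaric hypoxia and 2.62 at normal pressure with no overlap, while the ratio to miR-195a-5p overlaps.

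The 3p arms were far less abundant than the 5p arms. miR-195a-3p, the most abundant of them, was at 38.5, 37.2 and 44.9 RPM in the hypobaric libraries, against 32.5, 30.7 and 38.7 RPM in the normal-pressure libraries. The log2 change was 0.24 ± 0.20 (SE), with limma adjusted p = 0.518, and the groups overlapped. Its sign turned when libraries were scaled without the 10 most abundant miRNAs, which gave -0.0036. miR-15b-3p was at 7.27, 9.63 and 5.18 RPM in the hypobaric libraries, against 6.10, 3.46 and 5.14 RPM in the normal-pressure libraries, with a log2 change of 0.49 and limma adjusted p = 0.320.

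The remaining 3p arms averaged under 1 RPM. Tested with no filter on low values, miR-15a-3p, miR-16-2-3p and miR-497a-3p had limma adjusted p of 0.770, 0.800 and 0.867. miR-15a-3p had 35, 16 and 8 reads in the hypobaric libraries, against 11, 18 and 8 reads in the normal-pressure libraries. miR-16-2-3p, the only measured sequence particular to a miR-16 hairpin, had 4, 4 and 2 reads in the hypobaric libraries, against 5, 4 and 5 reads in the normal-pressure libraries. At these counts no difference was detectable, and the chromosome 3 hairpin cannot be followed by its 3p arm. miR-497a-3p had 5, 0 and 0 reads in the hypobaric libraries, against 0, 0 and 3 reads in the normal-pressure libraries. The counts of 0 allow up to 3 reads, 0.143 and 0.141 RPM in hypobaric libraries 2 and 3 and 0.143 and 0.133 RPM in normal-pressure libraries 1 and 2.

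The arm ratio of miR-195a differed between libraries of the same group. miR-195a-5p stood over miR-195a-3p by 11.7, 9.98 and 4.45 to 1 in the hypobaric libraries, against 6.96, 3.43 and 6.57 to 1 in the normal-pressure libraries. The low ratios were in hypobaric library 3, where the 3p arm was at its group's highest level, and in normal-pressure library 2, where it was at its group's lowest by a small margin. For miR-15b the ratio of 5p to 3p was 240 to 401 in the hypobaric libraries and 203 to 307 in the normal-pressure libraries, and the groups overlapped.

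**Figure D4:**
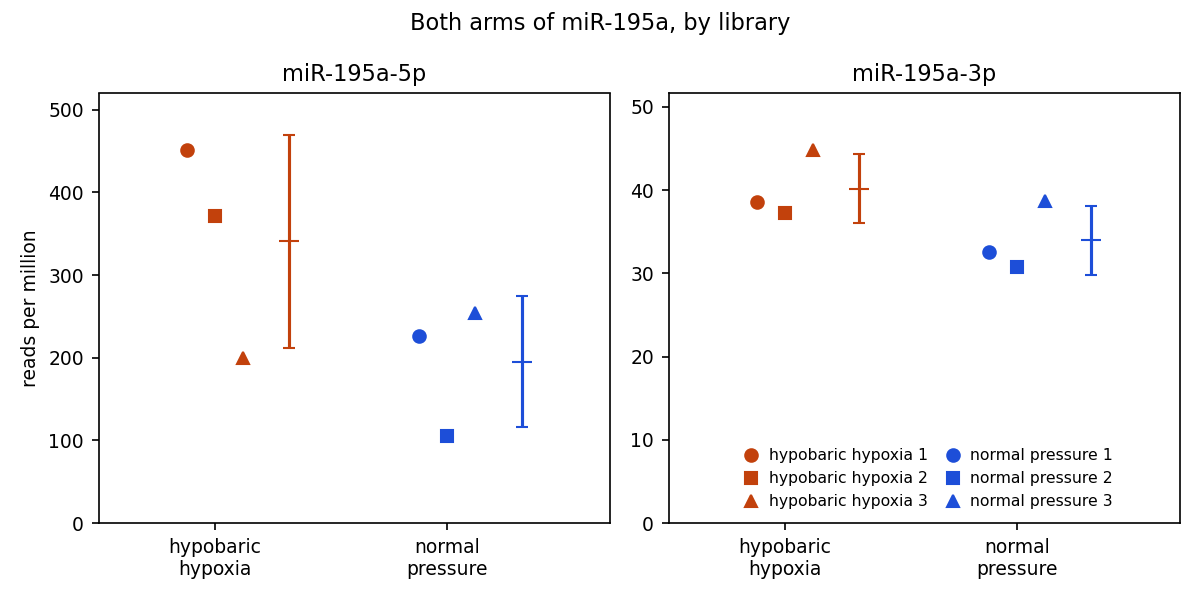
Both arms of the miR-195a hairpin in each library, in RPM on linear axes from 0; bars to the right of the points are mean ± SD (n = 3). The 5p arm is lowest in hypobaric library 3 (200 RPM) and normal-pressure library 2 (105 RPM) of their groups, while the 3p arm of the same libraries is at 44.9 and 30.7 RPM.

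The miRNAs that share the seed were also summed, as a description with no test. The 5 members reached 14165, 13491 and 11924 RPM in the hypobaric libraries, against 8078, 5011 and 8201 RPM in the normal-pressure libraries. This was 3.38% ± 0.218 of miRNA reads under hypobaric hypoxia and 2.07% ± 0.370 at normal pressure (SD, n = 3 each). miR-16-5p alone made up 64.0% ± 1.27 of the 5 under hypobaric hypoxia and 56.1% ± 1.73 at normal pressure (SD, n = 3 each). With miR-322-5p, which has the same seed but lies on chromosome X, the sum was 24653 ± 4023 RPM under hypobaric hypoxia and 16634 ± 3032 RPM at normal pressure (SD, n = 3 each). miR-322-5p itself was at 13272, 12992 and 8117 RPM in the hypobaric libraries, against 11173, 8300 and 9140 RPM in the normal-pressure libraries, which overlap. A log2 change of 0.24 had limma adjusted p = 0.524. It held 46.0% ± 4.75 of the sum under hypobaric hypoxia and 57.7% ± 4.83 at normal pressure, while miR-16-5p held 34.6% ± 3.60 and 23.8% ± 3.35 (SD, n = 3 each).

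**Figure D5:**
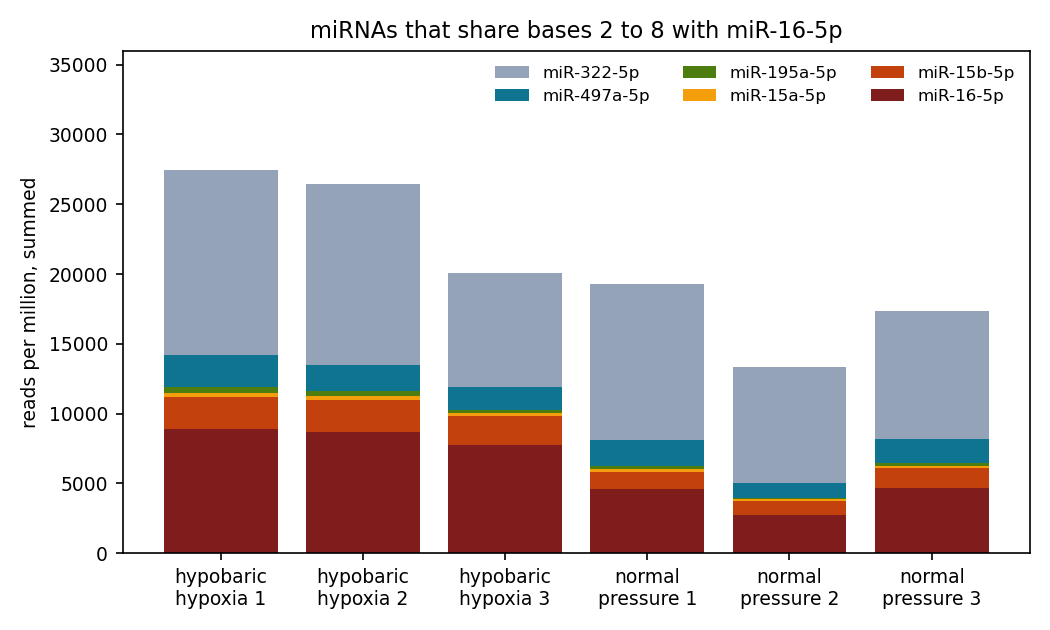
Stacked levels of the 6 miRNAs with the shared seed in each library, in RPM. miR-16-5p, at the base, is at 7768 to 8873 RPM in the hypobaric libraries and 2710 to 4692 RPM in the normal-pressure libraries; miR-322-5p, at the top, overlaps between the groups.

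Listed red-cell miRNAs were, like miR-16-5p, higher on average under hypobaric hypoxia. Of 7 listed red-cell miRNAs, 6 were tested and 4 were higher under hypobaric hypoxia in limma, against 3.16% of all tested miRNAs. One of the 4, miR-144-3p, met the filter of 1 RPM only through the hypobaric libraries, averaging 4.40 RPM there and 0.27 RPM at normal pressure. The 2 not called were miR-486a-5p and miR-486b-5p (limma adjusted p = 0.0620 and 0.505), and miR-486b-5p overlapped between groups. In hypobaric libraries 1, 2 and 3 the levels of these 2 ran in opposite order. They were 37.3, 101 and 54.8 RPM for miR-486a-5p and 97.3, 5.82 and 64.2 RPM for miR-486b-5p. The sources do not say how reads that fit both were assigned, so their separate results are uncertain. The summed level of the 7 listed was 9459 to 15085 RPM in the hypobaric libraries and 726 to 1577 RPM in the normal-pressure libraries, and none was at 0 in every library. miR-451a, the main red-cell miRNA, was at 14917, 9330 and 11328 RPM in the hypobaric libraries, against 1549, 676 and 790 RPM in the normal-pressure libraries. Both miR-451a and miR-16-5p were at their highest in hypobaric library 1 and at their lowest in normal-pressure library 2. Hypobaric libraries 2 and 3 were ordered oppositely, at 9330 and 11328 RPM for miR-451a and 8668 and 7768 RPM for miR-16-5p. Normal-pressure libraries 1 and 3 differed in miR-451a (1549 and 790 RPM) and were close in miR-16-5p (4598 and 4692 RPM). The difference of group means was 10853 RPM for miR-451a, 4437 RPM for miR-16-5p and 1000 RPM for miR-15b-5p. The part of red cells in the rise of miR-16-5p and miR-15b-5p was not tested.

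Leukocyte and platelet miRNAs had 5 tested members, of which limma and edgeR called 0 and DESeq2 called 1, and 1 had a limma p under 0.05 before adjustment, as did 20.2% of all tested miRNAs. Over all miRNAs with an adjusted p, DESeq2 called 12.6%. Their sum was 926 to 1072 RPM in the hypobaric libraries and 576 to 794 RPM in the normal-pressure libraries. Most of it was the lymphocyte miRNA miR-150-5p, at 876 ± 84.8 RPM under hypobaric hypoxia and 543 ± 101 RPM at normal pressure (SD, n = 3 each). The groups of miR-150-5p did not overlap, and its log2 change of 0.70 had limma adjusted p = 0.0827. It was the 1 with a limma p under 0.05 before adjustment. The myeloid miR-223 had negative log2 changes on both arms, -0.33 for miR-223-3p and -0.40 for miR-223-5p, with limma adjusted p = 0.377 and 0.310. The groups of miR-223-5p did not overlap, at 1.25 ± 0.174 RPM under hypobaric hypoxia and 2.00 ± 0.606 RPM at normal pressure (SD, n = 3 each). Both endothelial arms of miR-126a were uncalled in limma, edgeR and DESeq2, with 0 at an unadjusted p under 0.05, and their sum overlapped, at 17290 to 21334 RPM in the hypobaric libraries and 15323 to 20264 RPM in the normal-pressure libraries. The mesenchymal miR-143-3p and miR-145a-5p overlapped as a sum, at 30047 to 35236 RPM in the hypobaric libraries and 28007 to 36723 RPM in the normal-pressure libraries, most of it miR-143-3p. Limma, edgeR and DESeq2 called 0 of these 2, and 1 had a limma p under 0.05 before adjustment: miR-145a-5p, whose groups did not overlap, at 3582 ± 189 RPM under hypobaric hypoxia and 2862 ± 157 RPM at normal pressure (SD, n = 3 each; limma adjusted p = 0.227). Both gonadal arms of miR-202 were called higher by limma and DESeq2, and 1 of them by edgeR.

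The p53 protein promotes processing of the miR-16-1, miR-143 and miR-145 precursors in human cells and transcription of the miR-34 genes, so other p53-linked miRNAs were set beside the family. Of 9 listed, 8 were tested. Limma and edgeR called 0 of them, and DESeq2 called 2, against 12.6% of all miRNAs with an adjusted p. Before adjustment 4 had a limma p under 0.05, against 20.2% of all tested miRNAs. The median log2 change of the 8 was 0.09, against 0.15 over all tested miRNAs. It was positive in 6 of the 8, or 75%, against 65.7% of all tested miRNAs. miR-34a-5p, a direct p53 target, was at 3521, 2113 and 3918 RPM in the hypobaric libraries, against 5233, 4154 and 5367 RPM in the normal-pressure libraries. Its groups did not overlap, and its log2 change of -0.67 had limma adjusted p = 0.149. The others of the 4 were higher: miR-107-3p had a log2 change of 0.78, miR-194-5p 0.67 and miR-145a-5p 0.32 (limma adjusted p = 0.115, 0.152 and 0.227). The part of p53 in the levels of the family was not tested.

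The miRNAs outside the family whose profile lay nearest to that of miR-16-5p were found by the root-mean-square difference of log2(RPM + 1) over the 6 libraries, each profile centred on its own mean. They were miR-323-3p (0.15), miR-496a-3p (0.16), miR-410-3p (0.17), miR-672-5p (0.21) and miR-202-5p (0.23). The difference was 0.21 for miR-15b-5p, 0.25 for miR-15a-5p, 0.36 for miR-195a-5p and 0.38 for miR-497a-5p. Of the 5 nearest, miR-202-5p passed the test (limma adjusted p = 0.0114), and the log2 changes of the other 4 lay between 0.89 and 1.02 with limma adjusted p from 0.0555 to 0.0664. The profiles span both groups, so log2 changes near that of miR-16-5p follow from the selection and are no separate result.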

How the data were processed

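Per the labels' protocols, 1.3 µg of column-extracted total RNA entered each small RNA library, with gel selection, adapter ligation, PCR and DNBSEQ sequencing from 1 end for 50 bases. Bowtie2, DESeq2 and GRCm38.p6 are named in the submitters' processing notes without role or version. The deposited values, named TPM, are reads per 1000000 reads (RPM) of a total that the authors chose for each library: with a tolerance of 0.0005 RPM, 100% of values in each library were whole reads of 1 implied total. Reads are not independent molecules, so floors of 3 reads cover counting error only. Groups came from the titles.

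The comparison was hypobaric hypoxia over normal pressure in limma 3.58.1 (R 4.3.3), on log2(RPM + 1) with an intensity trend, two-sided, Benjamini-Hochberg adjusted over 475 miRNAs averaging 1 RPM or more. Fold changes on this scale understate those of low miRNAs. Alternatives included edgeR 4.0.16 and DESeq2 1.42.0 on the recovered reads. Ratios used an exact permutation test (scipy 1.17.1). Sequences are from RefSeq (GRCm38.p6), Mir15a coordinates and gene overlaps from GENCODE on GRCm38. All members were named, with the same-seed rows, the 5 nearest profiles and the marker lists. Members and lists were chosen with earlier results of these data known. No replicate pair within a group agreed within sampling noise (chi-square over degrees of freedom at least 119).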

Additional observations from a re-analysis of the deposited data

How the results depend on the processing

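Across 19 alternatives, miR-16-5p and miR-15b-5p kept a positive log2 change in all, from 0.86 to 1.25 and from 0.62 to 0.96, and passed in 17 each; both calls were lost without hypobaric library 1 or 2. The 4 alternative scalings put the median log2 change over the 475 tested between -0.05 and 0.03, against 0.15. Leaving out 1 library gave 10 to 34 miRNAs past the threshold, against 23, and 0 to 2 members, against 2. For miR-16-5p it gave log2 changes from 0.86 to 1.25 and for miR-15b-5p from 0.77 to 0.96. DESeq2 called 56 miRNAs. Leaving out both libraries that stood apart, chosen after seeing the data, called 47 miRNAs and 3 members; the third was miR-195a-5p. miR-195a-3p reversed to -0.0036 when scaled without the 10 most abundant miRNAs; the cause was not tested. The 4 ratios kept their sign under every alternative run, from 0.01 to 0.81. With the replicate number as a block, 23 miRNAs and 2 members passed, miR-16-5p with limma adjusted p = 0.0159 and miR-15b-5p with 0.0310. Deviations of same-numbered libraries from their group means correlated at 0.346, -0.469 and -0.288, and not every library correlated best with its own number. Such deviations cancel out within a group of 3, so these correlations cannot settle whether the numbers pair the libraries. Counts of 0 to 5 reads limit what can be said of miR-16-2-3p and miR-497a-3p.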

Other observations

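miR-503-5p, from the same X-linked cluster as miR-322 and with a related but not identical seed, was at 50.3, 50.0 and 20.6 RPM in the hypobaric libraries, against 26.2, 37.2 and 29.1 RPM in the normal-pressure libraries. The groups overlapped, and limma adjusted p was 0.645. The opposite arm of miR-322, miR-322-3p, which lacks the seed, was at 514 ± 59.5 RPM under hypobaric hypoxia and 269 ± 58.7 RPM at normal pressure (SD, n = 3 each), with a log2 change of 0.95 and limma adjusted p = 0.0352. miR-497b, read from the strand opposite to Mir497, had 0 to 1 reads in the hypobaric libraries and 0 to 4 reads in the normal-pressure libraries.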
